A study of Danio rerio with 4 samples.

Results

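The broad dense open domains described here are intervals of a bulk ATAC-seq count table that are wider than 1 kb and at most 5 kb and that hold at least 100 reads per kb in the mean library. In ATAC-seq the Tn5 transposase inserts sequencing adapters where chromatin is open, and an interval collects more reads the more accessible it is. The domains were chosen from measured values: the raw counts of all 4 libraries were added, divided by 4 and by the width in kb, and chromosomes 3, 4, 7 and 22 were left out. By this rule 1719 of the 54036 intervals (3.18%) were domains, and they lay on 21 chromosomes. They made up 22% of the 7831 intervals of their width on these chromosomes.

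Open chromatin marks promoters, enhancers and other regulatory elements, where nucleosomes give way to transcription factors. A single element usually gives a short peak, whereas a wide stretch of dense reads often holds several elements side by side, as at clusters of enhancers around genes that define a cell state. In the zebrafish heart, which regrows muscle after part of the ventricle is cut away, the cells other than cardiomyocytes (nonCMs: epicardium, endocardium, fibroblasts and blood cells) open regulatory elements after injury. How the domains sit in the genome, and whether their accessibility differed between the groups, were the questions put to these data.

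There were 2 Treatment and 2 WT libraries of nonCMs from adult zebrafish (Danio rerio) hearts, collected at 7 d. The labels give Treatment a wild type genotype with amputation and WT a wild type genotype with no treatment named, and they name the injury area as the source of the cells in both. The text of the study describes tnfα mutants (allele sa43296) set against wild type hearts, both after amputation. Whether the groups differ by genotype or by injury cannot be told apart from the labels, so the label names are kept. The labels do not say how many hearts went into a library or whether the libraries came from separate animals, so p-values measure the spread between these libraries, which may be technical. The nonCMs were a mixture, and gene positions on the build of the files were not used here, so the cell types could not be checked against their marker genes and no domain is placed in an exon, intron or promoter. Coordinates are on GRCz11, counted from 1.

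Counts summed over the table to 14736856 and 16558109 in the Treatment libraries and to 16128000 and 16822284 in the WT libraries. A domain held a median of 324 and 338 reads in the Treatment libraries and of 335 and 396 reads in the WT libraries, with a lowest count of 61. WT replicate 2 had the deepest domains. The domains covered 2.53 Mb of the 806 Mb in the table (0.314%) and held 9.3% of its reads. Across the 1719 domains, log2 CPM (reads scaled to the size of each library, with TMM factors) correlated at a Pearson r of 0.991 in the Treatment pair, 0.988 in the WT pair and 0.980 to 0.988 between a Treatment and a WT library. This is a correlation across intervals, whose levels span a wide range, and the intervals are not replicates.

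Most domains were near the lower limit of width. Their median width was 1280 bp with quartiles of 1116 and 1602 bp, 1200 of them were at most 1500 bp wide, and 63 were wider than 3000 bp. Density had a median of 260 reads per kb per library and quartiles of 162 and 617, and it reached 14333 at the top. The 172 densest domains held 44.3% of all reads in domains. Wider domains were somewhat denser (Spearman rho 0.24 across domains), although width also enters the density itself.

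The limit of 100 reads per kb lay above a steep fall in the counts of intervals, and the range around it was not empty. Of intervals of this width, 818 held 50 to 75 reads per kb per library, 139 held 75 to 100, 220 held 100 to 125 and 140 held 125 to 150. In the wider range of 150 to 200 there were 291. Just inside the limit lay chr8:4859480-4860517 at 100.2 reads per kb, chr6:59921575-59922838 at 100.5 and chr24:38369317-38370322 at 100.6. Just outside it lay chr6:20788549-20790001 at 99.97, chr23:20373314-20374396 at 99.95 and chr6:38781723-38782799 at 99.8. Their Treatment over WT log2 fold changes ran from -0.54 to 0.65 inside and from -0.12 to 0.65 outside, so the 2 sides of the limit overlapped.

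**Figure D1:**
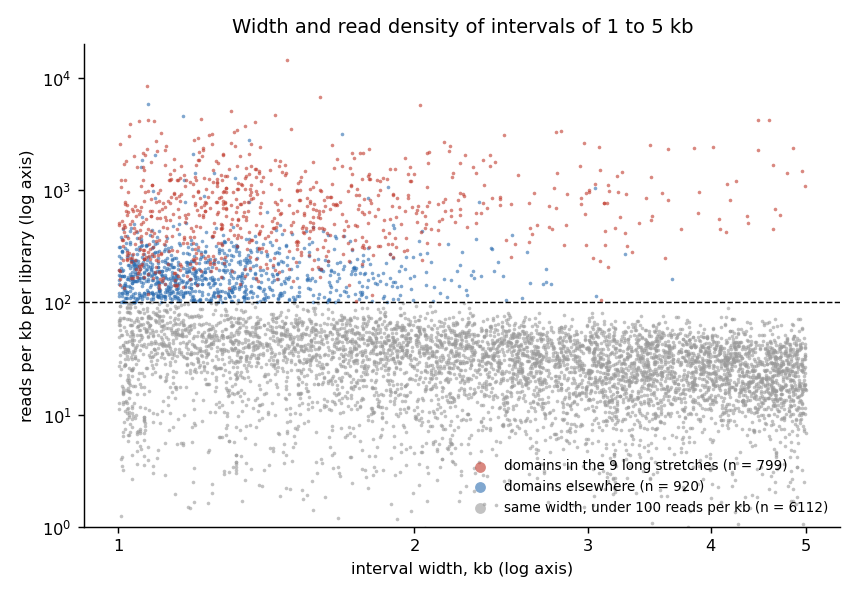
Width in kb (x axis, log) and reads per kb per library (y axis, log) of every interval of 1 to 5 kb, with 1 point for each interval. The 799 domains in the 9 long stretches (red) sit mostly above the 920 domains elsewhere (blue), and the 6112 sparser intervals of the same width (grey) lie under the dashed limit of 100 reads per kb. The 445 sparser intervals with under 1 read per kb are below the axis.

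Many domains were packed into a few places. Domains that lay at most 200 kb from the next were joined into runs, a distance chosen after the data were seen. This gave 670 runs, of which 494 were single domains. In 9 runs there were 58 to 127 domains each, and the largest of the other 661 runs held 7. The 9 long stretches spanned 10.3 Mb in all, with 799 domains (46.5%) and 81.4% of the reads in domains. Joining at 500 kb gave 9 runs of at least 20 domains with 804 domains, at 100 kb 10 runs with 769 domains and at 50 kb 13 runs with 687 domains.

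All but 1 of the long stretches were 898 to 1218 kb long. The stretch chr12:12788203-13765108 held 127 domains, which took up 22.1% of its length and 52.4% of its reads. On the same chromosome chr12:24655374-25556472 held 77 domains and chr12:30509226-31460411 held 58. The longest stretch was chr17:21804187-24064911, with 112 domains over 2261 kb. The others were chr1:17877674-19095450 with 86 domains, chr8:34399870-35297609 with 60, chr10:14534630-15604926 with 91, chr15:17098611-18238387 with 90 and chr16:19346177-20264262 with 98. Chromosome 12 alone carried 292 domains, 262 of them in its 3 stretches.

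Domains in the stretches were denser than those elsewhere, with medians of 633 and 171 reads per kb per library. Of the 230 domains with at least 1000 reads per kb, 216 lay in a stretch, against 60 of the 651 domains under 200. The 5 densest domains of the series were chr12:13010255-13011739 at 14333 reads per kb per library, chr17:22806301-22807370 at 8416, chr15:17661312-17662915 at 6790, chr24:17980602-17981673 at 5893 and chr17:22787547-22789572 at 5773. Only the domain on chromosome 24 was outside the stretches. The higher density was shared by the other intervals of the stretches. Intervals of over 5 kb had a median of 38.8 reads per kb per library inside the stretches and 14.5 elsewhere, and intervals of at most 1 kb had 233 and 171. The stretches were chosen for holding many domains, so densities inside them are given as a description.

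The excess was alike in the 4 libraries. For intervals of over 5 kb the median density inside the stretches was 2.59 and 2.67 times that elsewhere in the Treatment libraries, and 2.62 and 2.72 times in the WT libraries. For the domains themselves it was 3.62 and 3.90 times in the Treatment libraries and 3.81 and 3.46 times in the WT libraries. The ratios of the groups overlapped in both cases. What sets the stretches apart was not tested.

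The rule sets domains above their direct neighbours, so the following values are a description. Of the 1719 domains, 73.2% touched another interval of the table with no gap on at least 1 side. These touching intervals had a median of 35.1 reads per kb per library, and the median domain was 8.71 times as dense as the mean of its touching neighbours. The ratio was 13.6 in the stretches and 6.99 elsewhere, and 104 of the 2089 touching neighbours reached 100 reads per kb themselves. Narrow intervals (at most 1 kb) chosen at the same density had a similar ratio of 8.92, and 75.6% of them touched another interval.

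The study linked some open regions to genes in a list that was itself a selection. By its title, it holds regions open in epicardial cells and fibroblasts that overlap candidate regeneration enhancers already known. Its genes are thus not a sample of all genes in the stretches. The part of the list read here placed regions linked to 16 gene symbols in the long stretches. RefSeq names all 16 on the same chromosome of its GRCz12tu assembly, which was used for names only. They were fam114a1 on chromosome 1, spp1 and erbin on chromosome 10, fshr, calm2b, zfp36l2, nrap and tcf7l2 on chromosome 12, cltcb, rps6kb1b and arcn1b on chromosome 15, macc1, twist1b and hdac9b on chromosome 16, and htra1a and b3gnt2b on chromosome 17. Among them spp1 codes for osteopontin, a secreted matrix protein, twist1b for a transcription factor of mesenchymal cells, tcf7l2 for a DNA-binding partner of β-catenin in Wnt signalling, and hdac9b for a histone deacetylase. The list gives no link for most domains, and a link does not show which gene a domain acts on.

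Distances were taken to the linked regions, since the positions of the genes were not used. Of the domains nearest to these regions, the one for rps6kb1b passed the test. The gene codes for a ribosomal S6 kinase that acts below mTOR. The domain nearest to its linked region was chr15:17527833-17532298. This domain had 588 and 572 CPM in the Treatment libraries, against 690 and 668 CPM in the WT libraries. The Treatment libraries lay below both WT libraries, with a log2 fold change of -0.23 and an adjusted p of 0.00219 by edgeR's quasi-likelihood test. The call was lost without Treatment replicate 2 (adjusted p = 0.237, edgeR) and with the TMM factors of the intervals no wider than 1 kb (0.603) or of the domains alone (0.256).

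For the other genes the domains nearest to the linked regions did not pass. The domain nearest to the region linked to fam114a1 was at a log2 fold change of -0.27 (adjusted p = 0.0643, edgeR). Another within 50 kb of a region linked to that gene, chr1:18564503-18565788, was called lower at -0.31 (adjusted p = 0.0389, edgeR). Its call was lost by DESeq2's Wald test (adjusted p = 0.428). The same held with the TMM factors of the intervals no wider than 1 kb (adjusted p = 0.41, edgeR) or of the domains alone (0.157). That call was also lost without Treatment replicate 2 (log2 fold change -0.19) or WT replicate 2 (-0.17). For the region linked to twist1b the nearest domain was chr16:19708866-19711815. This domain had 153 and 157 CPM in the Treatment libraries, against 159 and 151 CPM in the WT libraries. Its log2 fold change of -0.00082 (adjusted p = 0.999, edgeR) was within the spread of the pairs. For the region linked to tcf7l2 the nearest domain was chr12:31226835-31227859. It had 195 and 172 CPM in the Treatment libraries, against 197 and 203 CPM in the WT libraries. Both Treatment libraries were below both WT libraries there, but the log2 fold change of -0.12 had an adjusted p of 0.435 (edgeR). For the region linked to spp1 the nearest domain was chr10:15161323-15162352. It had 9.25 and 10.8 CPM in the Treatment libraries, against 10.98 and 10.98 CPM in the WT libraries (adjusted p = 0.849, edgeR). A domain called lower lay within 50 kb of a region linked to hdac9b, chr16:19824732-19826060, at a log2 fold change of -0.45 and with its call kept in 2 of the 4 fits without a library, whereas the domain closest to that gene's region was at -0.01. The call of chr16:19824732-19826060 was lost by DESeq2's Wald test (adjusted p = 0.217). It was lost too with the TMM factors of the intervals no wider than 1 kb (adjusted p = 0.205, edgeR).

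Treatment was then compared with WT across the whole table, after TMM scaling on all intervals, with edgeR's quasi-likelihood test and Benjamini-Hochberg adjustment over 50494 tested intervals. All 1719 domains were tested. Calls were made below an adjusted p of 0.05. Of the domains, 32 (1.86%) were called lower in Treatment, where 0.721% of all tested intervals were, and 9 (0.524%) were called higher, where 0.438% were. In all 41 called domains the groups did not overlap, which the call itself makes likely. Both Treatment libraries were also below both WT libraries in 21.4% of all tested intervals, and above both in 19.9%. In bulk nonCMs, fewer cells of a type and a less open element per cell cannot be told apart.

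The number of calls depended on single libraries. Without Treatment replicate 2 there were 5 domains called lower and 4 called higher, and without WT replicate 2 there were 6 lower and 9 higher. Without Treatment replicate 1 the counts were 45 lower and 7 higher, and without WT replicate 1 they were 118 and 14. The scaling moved them too: with the TMM factors computed on the intervals no wider than 1 kb, 7 domains were called lower and 12 higher, with factors from the domains alone 13 lower and 9 higher, and by the Wald test of DESeq2 6 were lower and 7 higher. Of the 41 called domains, 2 lower and 3 higher were called under all 13 alternatives, the 4 that leave out a library included.

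**Figure D2:**
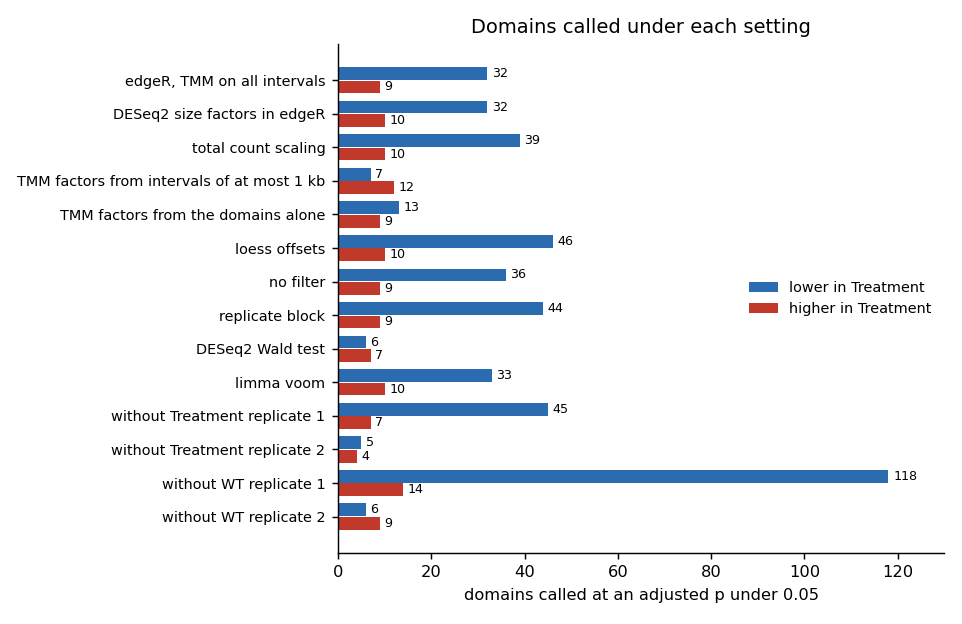
Number of domains (x axis) called lower (blue) or higher (red) in Treatment at an adjusted p under 0.05 under each setting (y axis), among the 1719 domains. The test with TMM on all intervals, at the top, gives 32 lower and 9 higher, and the count of lower domains runs between 5 and 118 when 1 library is left out.

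Most domains changed little. Their median log2 fold change was -0.04, with quartiles of -0.17 and 0.08 and extremes of -1.70 and 0.999, and 60.2% were below 0. Over all tested intervals the median was -0.0022, with 50.5% below 0. Of the domains, 2.27% differed by at least 0.5 on the log2 scale in either direction, where 11.1% of all tested intervals did. The domains were also measured more closely, with a median standard error of 0.14 against 0.21 over all tested intervals. Both Treatment libraries were below both WT libraries in 28.4% of domains, where 21.4% of all tested intervals were, and above both in 15.9%, where 19.9% were. The lean was not particular to the domains. Of narrow intervals with at least 100 reads per kb, 64.9% were below 0. In 32.8% of those intervals both Treatment libraries were below both WT libraries, and in 13.1% above both. The median of all tested intervals itself stood at 0.11 when the TMM factors came from the intervals no wider than 1 kb, and that of the domains then at 0.07. Relative to the median of all intervals, the domains were at -0.038 to -0.039 with each TMM choice, DESeq2 size factors and total counts. Such scalings use a single factor per library and shift all intervals nearly alike, so they could hardly move this value. With loess offsets, which vary with depth, it was -0.057. Single libraries moved this value more: it was -0.057 without Treatment replicate 1, -0.016 without Treatment replicate 2, -0.072 without WT replicate 1 and -0.0074 without WT replicate 2.

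**Figure D3:**
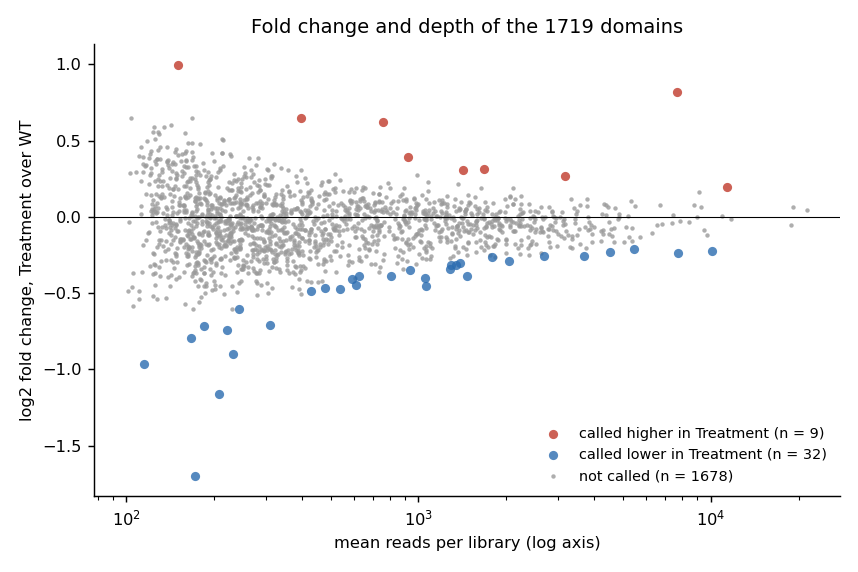
Log2 fold change, Treatment over WT (y axis), against the mean reads per library (x axis, log) for the 1719 domains, with 1 point for each domain. The 32 domains called lower (blue) and the 9 called higher (red) stand at the edges of a cloud that narrows with depth, and the strongest changes, -1.70 and 0.999, are in domains of few reads.

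Dense intervals of other widths and sparse intervals of the same width had other medians. Narrow intervals (at most 1 kb) of at least 100 reads per kb had a median log2 fold change of -0.13 in 14669 tested, with 119 (0.811%) called lower and 29 (0.198%) higher. Sparser intervals of 1 to 5 kb had a median of 0.04 in 5439 tested, with 11 (0.202%) called lower and 14 (0.257%) higher. Over all tested intervals the shares were 0.721% and 0.438%, so the narrow dense class was near them in calls of lower intervals. The narrow and sparser classes were shallower than the domains, with medians of 84.5 and 72.75 reads per library against 345.75. Their median standard errors were 0.26 and 0.27 against 0.14, which limits what could be called in them. The sparser intervals were also wider, with a median of 2632 bp against 1280 bp. In median log2 fold change the domains, at -0.04, lay between the 2 classes. Their shares of calls, 1.86% lower and 0.524% higher, were above those of both. Taken for each library as the median of log2 CPM centred on the mean of the 4 libraries, the domains minus the sparser intervals stood at -0.02 and -0.07 in the Treatment libraries and at 0.01 and 0.07 in the WT libraries. By a two-sided exact permutation test over libraries the difference of -0.08 reached p = 0.33, and 2 against 2 libraries cannot give a smaller one. It was -0.10 without Treatment replicate 1, -0.06 without Treatment replicate 2, -0.11 without WT replicate 1 and -0.05 without WT replicate 2. Domains minus narrow dense intervals stood at 0.03 and 0.04 in the Treatment libraries, against -0.02 and -0.06 in the WT libraries, a difference of 0.07 with the same exact permutation p. This contrast was not even across density. From 100 to 200 reads per kb the median log2 fold change was -0.02 in domains and -0.15 in narrow intervals. From 200 to 500 these medians were -0.08 and -0.13. From 500 to 1000 they were -0.023 and -0.0085, the other way round, and above 1000 they were -0.05 and -0.06.

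The share of a library's reads that fell in domains was 9.27% (95% Wilson interval 9.25 to 9.28) and 9.04% (9.03 to 9.05) in the Treatment libraries, against 9.26% (9.25 to 9.28) and 9.62% (9.60 to 9.63) in the WT libraries. The intervals cover counting error only, since reads are not independent molecules. The means were 9.15% ± 0.16 in Treatment and 9.44% ± 0.25 in WT (SD, n = 2 each), and the difference of -0.29 percentage points had an exact permutation p of 0.667. It was -0.399 without Treatment replicate 1, -0.171 without Treatment replicate 2, -0.462 without WT replicate 1 and -0.109 without WT replicate 2. The groups overlapped, with WT replicate 1 below Treatment replicate 1.

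Calls were more frequent among the domains in the stretches. There, 24 of 799 domains (3%) were called lower and 5 (0.626%) higher, where 0.721% and 0.438% of all tested intervals were. Of the 920 domains elsewhere 8 (0.870%) were called lower and 4 (0.435%) higher, which is near those shares. The stretch domains were deeper, with a median standard error of 0.08 against 0.16 elsewhere, and their log2 fold changes had medians of -0.03 in the stretches and -0.06 elsewhere. Between libraries, the median of stretch domains minus that of domains elsewhere was -0.03 and 0.05 in the Treatment libraries and 0.06 and -0.10 in the WT libraries, and the difference of 0.02 had an exact permutation p of 1. The domains elsewhere differed more within groups: Treatment replicate 2 minus Treatment replicate 1 had a median of -0.09 on the log2 scale, and WT replicate 2 minus WT replicate 1 a median of 0.13. In the stretches these medians were -0.02 and 0.01. In a fit from which the stretches were left out, the calls elsewhere were again 8 lower and 4 higher.

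Depth went with the calls. Of the 429 domains with the fewest reads (a mean of 101 to 202 per library), 4 (0.932%) were called lower and 1 (0.233%) higher. This is near the shares of all tested intervals, 0.721% and 0.438%. Of the 430 deepest (936 reads or more), 15 were called lower and 5 higher. Other intervals of the deepest range had 34 lower and 15 higher calls in 2977, which is 1.14% and 0.504%, against 3.49% and 1.16% of the domains. The other intervals of that range were far wider, with a median width of 91025 bp. By width, 11 (5.7%) of the 193 domains of over 2000 bp were called lower and 5 (2.59%) higher. Of the 787 domains of at most 1250 bp, 9 (1.14%) were called lower and 2 (0.254%) higher, which is nearer the shares of all tested intervals. By density the order was not even. The share called in either direction was 1.23% from 100 to 200 reads per kb, 2.5% from 200 to 500, 1.81% from 500 to 1000 and 6.09% above 1000. Over all tested intervals it was 1.16%.

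The domain with the largest fall was chr8:16587443-16588489, outside the stretches, with 5.37 and 4.59 CPM in the Treatment libraries, against 14.5 and 17.8 CPM in the WT libraries. The raw counts were 79 and 76 reads in the Treatment libraries, against 232 and 301 in the WT libraries, so the groups were far apart compared with either pair. Its log2 fold change was -1.70 with a standard error of 0.20 and an adjusted p of 6.05e-08 (edgeR). The intervals that touch it on either side, of 12.9 and 17.8 reads per kb per library, were at 0.20 and -0.19 and were not called.

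The next was chr17:44736175-44737212, with 7.62 and 8.22 CPM in the Treatment libraries, against 21.1 and 14.4 CPM in the WT libraries. The WT libraries differed from each other, yet both were well above the Treatment pair, and the log2 fold change was -1.16 ± 0.18 (SE, edgeR adjusted p = 5.14e-05). These 2 domains were the only ones called lower under all 13 alternatives.

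The other named domains called lower outside the stretches were weaker. By DESeq2's Wald test only that on chromosome 18 stayed called (adjusted p = 0.0205). Those on chromosomes 25, 5, 23, 20 and 6 did not (0.131, 0.126, 0.17, 0.188 and 0.174). With the TMM factors of the intervals no wider than 1 kb, the calls on chromosomes 23, 20 and 6 were lost (adjusted p = 0.0785, 0.169 and 0.207, edgeR). At chr25:12853285-12854363 there were 4.15 and 5.44 CPM in the Treatment libraries, against 8.86 and 9.92 CPM in the WT libraries, a log2 fold change of -0.96. At chr18:20849629-20850695 the Treatment libraries had 9.25 and 10.7 CPM, against 15.2 and 22.1 CPM in the WT libraries, and the log2 fold change was -0.90. At chr5:28783043-28784171 the Treatment libraries had 6.80 and 8.16 CPM, against 13.2 and 12.9 CPM in the WT libraries. In all 3 the groups were apart, but the calls on chromosomes 25 and 5 were lost without Treatment replicate 1 (adjusted p = 0.194 and 0.188, edgeR) or WT replicate 2 (0.137 and 0.0561), and that on chromosome 18 without WT replicate 2 (adjusted p = 0.218, edgeR). The domain chr23:43769994-43771137 had 8.98 and 8.34 CPM in the Treatment libraries, against 14.2 and 14.2 CPM in the WT libraries. Both pairs were tight there, but its adjusted p of 0.0245 rose above 0.05 whichever library was left out. The domain chr20:26307218-26308789 was at -0.48 and the wider chr6:8736051-8738274 at -0.46, and both calls were lost without Treatment replicate 2 (adjusted p = 0.283 and 0.184, edgeR) or WT replicate 2 (0.426 and 0.252). The second was also lost without Treatment replicate 1 (adjusted p = 0.124, edgeR).

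Within the stretches the named falls were smaller or in shallow domains. By DESeq2's Wald test the calls at chr8:34423583-34425300 and chr12:24924130-24925520 were lost (adjusted p = 0.296 and 0.381), and that at chr15:17540905-17542476 was kept (0.0367). The domain chr15:17540905-17542476 began 8.61 kb beyond the one nearest to the region linked to rps6kb1b. It had 15.6 and 13.5 CPM in the Treatment libraries, against 20.95 and 26.6 CPM in the WT libraries. The Treatment pair was below both WT libraries, at a log2 fold change of -0.71 ± 0.14 (SE, edgeR adjusted p = 0.00301), and 2 domains between these 2 were not called. The call was lost without Treatment replicate 2 (adjusted p = 0.1, edgeR) or WT replicate 2 (0.18). At chr8:34423583-34425300 the Treatment libraries had 11.4 and 12.3 CPM, against 16.3 and 19.9 CPM in the WT libraries, and the log2 fold change of -0.61 was -0.45 without WT replicate 2 (adjusted p = 0.443, edgeR). That call was also lost without Treatment replicate 1 (0.225) or Treatment replicate 2 (0.152). At chr12:24924130-24925520 the Treatment libraries had 23.1 and 21.03 CPM, against 26.6 and 35.1 CPM in the WT libraries. Here WT replicate 2 carried most of the difference, and without it the log2 fold change was -0.26 with an adjusted p of 0.633 (edgeR). Without Treatment replicate 1 or 2 the adjusted p was 0.0516 and 0.365. The remaining 20 domains called lower had log2 fold changes between -0.21 and -0.45. The groups were apart in each, which the call itself makes likely. With the TMM factors of the intervals no wider than 1 kb only 7 domains were called lower, all of them among the 12 named falls.

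The clearest rise was chr17:23122465-23124931, a domain of 2467 bp and 3121 reads per kb per library in the stretch of chromosome 17. It had 598 and 634 CPM in the Treatment libraries, against 350 and 349 CPM in the WT libraries. The Treatment pair was far above the WT pair, which agreed closely, at a log2 fold change of 0.82 ± 0.05 (SE, edgeR adjusted p = 2.16e-16). Across the 13 alternatives its log2 fold change stayed between 0.77 and 0.93 and it was called in each. The next domain called, chr17:23136523-23137572, began 11.6 kb further on and went the other way, with 11.6 and 9.07 CPM in the Treatment libraries, against 16.6 and 17.8 CPM in the WT libraries, a log2 fold change of -0.74 (adjusted p = 0.00962, 0.332 without Treatment replicate 2 and 0.0736 without WT replicate 2, edgeR). By DESeq2's Wald test this fall was not called (adjusted p = 0.0868). A single domain lay between the pair, and the intervals closest to the first were at -0.16 and 0.07 and were not called.

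The stretch of chromosome 8 held 2 domains called higher, and the larger rise was of a similar kind. The domain chr8:35230553-35231985 had 57.9 and 57.1 CPM in the Treatment libraries, against 38.5 and 36.2 CPM in the WT libraries. Both pairs were tight and apart, the log2 fold change was 0.62 ± 0.09 (SE, edgeR adjusted p = 9.61e-06), and the call held in all 13 alternatives. The interval that touches it on the near side, of 4580 bp, was at -0.06.

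Outside the stretches, chr16:18139178-18140199 had 31.3 and 29.5 CPM in the Treatment libraries, against 18.1 and 20.7 CPM in the WT libraries. The groups were apart by more than the spread of either pair, at a log2 fold change of 0.65 ± 0.12 (SE, edgeR adjusted p = 0.00123), and this call too held in all 13 alternatives. No interval touched this domain, and the nearest before it ended 51153 bp away.

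The largest rise was at chr17:41861446-41862849, a shallow domain with 11.5 and 13.5 CPM in the Treatment libraries, against 7.67 and 4.90 CPM in the WT libraries. The WT libraries differed by more than the Treatment pair, the log2 fold change was 0.999 ± 0.21 (SE, edgeR adjusted p = 0.00392), and without WT replicate 2 it was 0.71 with an adjusted p of 0.146. Without Treatment replicate 2 the adjusted p was 0.0969 (edgeR). The other rises were small. The domain chr12:12896245-12899080 was at 0.39, chr8:34983486-34987218 at 0.32, chr24:6341264-6342429 at 0.31 and chr24:17990552-17993603 at 0.27. The domain on chromosome 24 at 6341264 lay within 50 kb of a region linked to anxa13, which codes for a calcium-dependent membrane-binding annexin. By DESeq2's Wald test the call of this domain was lost (adjusted p = 0.116), as was that on chromosome 12 (0.0505). The call on chromosome 12 was lost without Treatment replicate 1 (adjusted p = 0.0695, edgeR), Treatment replicate 2 (0.0616) or WT replicate 1 (0.0554). The last was lost without Treatment replicate 1 (adjusted p = 0.229, edgeR) or WT replicate 2 (0.0506), and the middle 2 without Treatment replicate 2 (0.19 and 0.532).

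**Figure D4:**
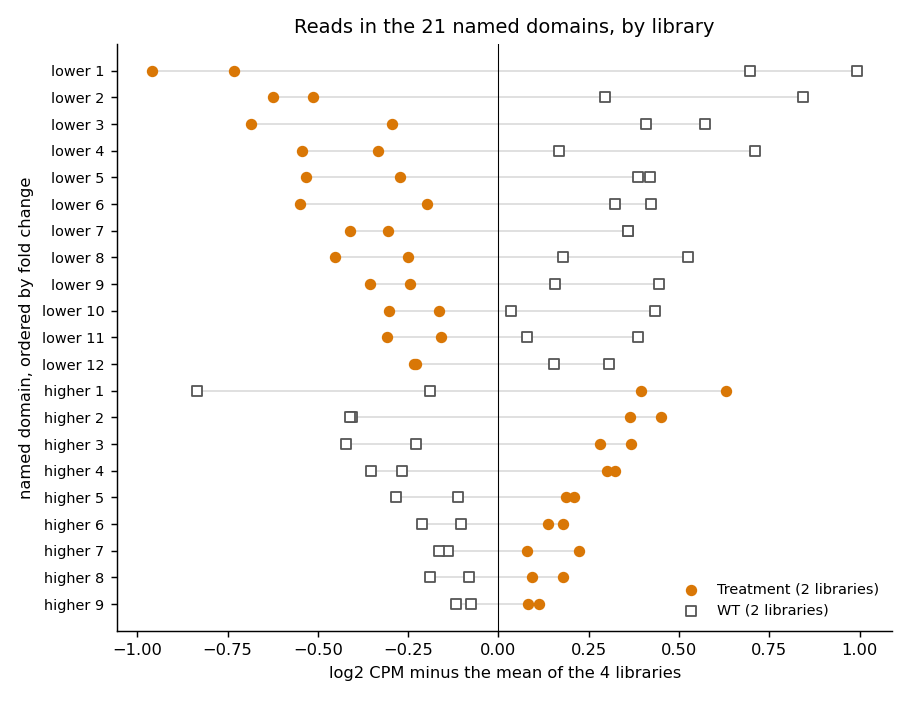
Log2 CPM minus the mean of the 4 libraries (x axis) for the 21 named domains (y axis), with Treatment libraries as filled circles and WT libraries as open squares. Lower 1 to 12 and higher 1 to 9 run from the largest fold change down, lower 1 being at -1.70 and higher 1 at 0.999. In each row the 2 Treatment libraries lie on the same side of both WT libraries, as the rule for naming the domains required.

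The densest domains did not pass the test. Of the 5 densest, 0 were called by edgeR, DESeq2 or limma with voom, and 1 had an unadjusted p under 0.05. Of all 1719 domains, 258 had an unadjusted edgeR p under 0.05 with a fall in Treatment and 76 with a rise. The densest, chr12:13010255-13011739, had 1377 and 1321 CPM in the Treatment libraries, against 1322 and 1289 CPM in the WT libraries, so that the pairs overlapped and the log2 fold change was 0.05 (adjusted p = 0.711, edgeR). The densest domain outside the stretches, chr24:17980602-17981673, had 384 and 373 CPM in the Treatment libraries, against 401 and 414 CPM in the WT libraries, with the groups apart but an adjusted p of 0.404. Of the 3 widest, 1 was called higher. The call was lost with the TMM factors of the intervals no wider than 1 kb (adjusted p = 0.0904, edgeR) or of the domains alone (0.0864). The domain was chr16:19592757-19597602, of 4846 bp and within 50 kb of a region linked to macc1. It had 768 and 751 CPM in the Treatment libraries, against 674 and 655 CPM in the WT libraries, a log2 fold change of 0.19 ± 0.04 (SE, edgeR adjusted p = 0.0113, with 0.275 without Treatment replicate 1 and 0.195 without Treatment replicate 2). The widest, chr1:17994685-17999672 with 4988 bp, had 318 and 310 CPM in the Treatment libraries, against 345 and 382 CPM in the WT libraries and was called lower at -0.21 (adjusted p = 0.0284, edgeR), a call kept only without WT replicate 1 among the 4 fits that leave out a library. The third, chr12:24696457-24701411, within 50 kb of a region linked to fshr, was at -0.04 and not called.

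The intervals around called domains were mostly not called. Of the 34 tested intervals that touched a called domain, 22 had a log2 fold change of the same sign. Of these 34, 0 were called by edgeR, DESeq2 or limma with voom, and 4 had an unadjusted p under 0.05. Among the 50494 tested intervals, 3375 had an unadjusted edgeR p under 0.05 with a fall in Treatment and 2279 with a rise. The 34 touching intervals were much sparser than the domains, which limits what could be called in them. Counting the nearest interval on either side whatever the gap, 48 of 79 had the same sign and 2 were called. These 2 were neighbours of each other, chr12:13109539-13112868 at -0.35 and chr12:13113020-13114862 at -0.41, which are domains 0.151 kb apart.

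Of the 41 called domains, 28 lay in 7 runs that held at least 2 calls each. All 7 were long stretches, of 60 to 127 domains. Of the domains in the stretches 3.63% were called in either direction, where 1.16% of all tested intervals were. The most calls in a run were 7, in that of chromosome 8. There, chr8:34968750-34971383 had 59.4 and 51.6 CPM in the Treatment libraries, against 67.2 and 84.7 CPM in the WT libraries. The domain chr8:34983486-34987218, 12.1 kb further on, went the other way, with 115 and 118 CPM in the Treatment libraries, against 89.8 and 96.9 CPM in the WT libraries. After 14.6 kb more, chr8:35001789-35005075 was lower again, with 60.7 and 52.0 CPM in the Treatment libraries, against 60.9 and 87.7 CPM in the WT libraries. In both falls WT replicate 2 stood far above the other 3 libraries, and in the rise it did not. Without that library the falls were at log2 fold changes of -0.27 and -0.11. Their calls were lost with the TMM factors of the intervals no wider than 1 kb (adjusted p = 0.117 and 0.23, edgeR). By DESeq2's Wald test they were lost as well, whereas the rise stayed called in both settings.

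Log2 fold changes below 0 reached along much of this stretch. In its first 400 kb, 19 of 20 domains were below 0, with a median log2 fold change of -0.25, and between 400 and 650 kb 11 of 13 were, with a median of -0.19. Past 650 kb the median of 27 domains was -0.0028. These limits were set after the values had been seen. In the first part the median centred log2 CPM was -0.08 and -0.18 in the Treatment libraries and -0.0019 and 0.25 in the WT libraries, so WT replicate 2 was high and the Treatment libraries were spread. The other intervals of the same part moved with the domains: 131 of 161 were below 0, with a median of -0.25 in those of at most 1 kb and -0.28 in those of over 5 kb. Past 650 kb those medians were 0.03 and -0.03. All 5 domains called lower on this stretch lay in its first 650 kb. The median of the domains in the first 400 kb was -0.32 without Treatment replicate 1 and -0.21 without Treatment replicate 2. Without WT replicate 1 it was -0.35. Without WT replicate 2 the medians of the domains were -0.11 in the first 400 kb, with 16 of 20 below 0, and -0.09 between 400 and 650 kb, with 8 of 13 below 0. What sets that library apart there was not tested.

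**Figure D5:**
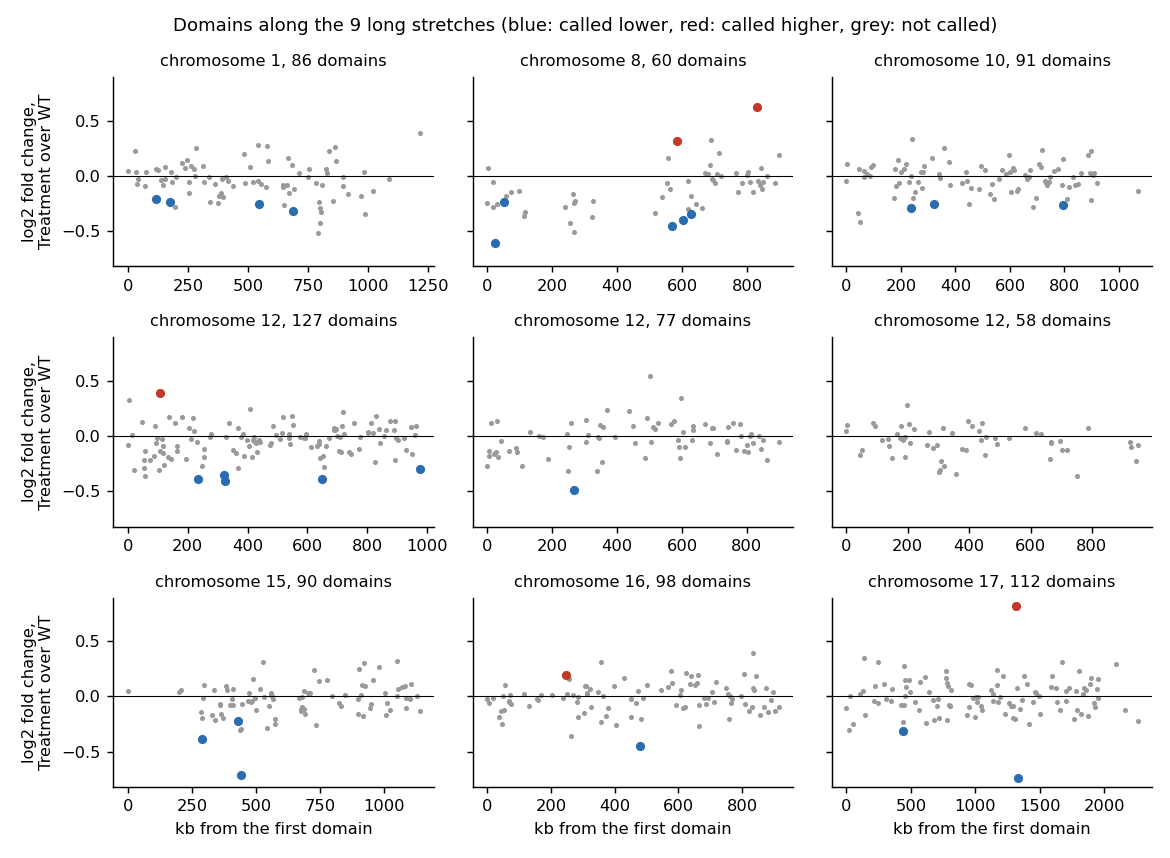
Log2 fold change, Treatment over WT (y axis), of each domain by its distance in kb from the first domain of the stretch (x axis), for the 9 long stretches. Called domains are blue (24 lower) and red (5 higher). The first 650 kb of the chromosome 8 stretch hold most of its domains below 0, and the largest rise, 0.82, stands on chromosome 17 close to a fall of -0.74.

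With TMM on all intervals, the domains of the other stretches scattered around a level just under 0. Log2 fold changes had a median of -0.12 in the stretch of chromosome 8 and medians between -0.05 and -0.01 in the other 8. Taken as the median centred log2 CPM over its domains, 8 of the 9 stretches had both Treatment libraries below both WT libraries, the exception being that of chromosome 10. The gaps were small beside chromosome 8. In the stretch chr12:12788203-13765108 the medians were -0.01 and -0.04 in the Treatment libraries and 0.04 and 0.01 in the WT libraries. On chromosome 17 they were -0.0083 and -0.015 in the Treatment libraries and 0.011 and -0.0065 in the WT libraries. Over all domains the same measure overlapped between the groups. It was 2.9e-05 and -0.043 in the Treatment libraries and -0.0013 and 0.048 in the WT libraries. The stretches share their libraries, so they are not separate tests. The level also depends on the scaling: the median of all domains was 0.07 with the TMM factors of the intervals no wider than 1 kb. Whether the libraries of the stretches stay apart under other scalings was not tested. By stretch, 5 domains each were called lower on chromosome 8 and in chr12:12788203-13765108, 4 on chromosome 1, 3 each on chromosomes 10 and 15, 2 on chromosome 17, 1 each on chromosome 16 and in chr12:24655374-25556472. In chr12:30509226-31460411 0 of the 58 domains were called by edgeR, DESeq2 or limma with voom, 16 had an unadjusted p under 0.05, and the log2 fold changes ran from -0.36 to 0.28. Of all 1719 domains, 258 had an unadjusted edgeR p under 0.05 with a fall in Treatment and 76 with a rise. Among the 50494 tested intervals these counts were 3375 and 2279.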

How the data were processed

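By the study's methods section, the authors used Trim Galore for trimming and Bowtie2 for alignment to GRCz11, dropped mitochondrial and multiply mapped reads, and ran Genrich once per condition on its pair of replicates. The joining of peak sets, the counting of reads, and any removal of duplicates or Tn5 shift are not given in the sources used here; unremoved duplicates or a changed interval set would alter densities. The authors deposited raw counts per interval, not normalized, and 0 columns were left unused. Many intervals touch the next (24126 did), and 0 overlapped, so 1 was added to the deposited start.

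Counts were filtered with filterByExpr (minimum count 10), scaled with TMM and tested with glmQLFit and glmQLFTest of edgeR 4.0.16 (R 4.3.3). Group was the sole term, with Benjamini-Hochberg adjustment over the whole table. A standard error is the size of the log2 fold change divided by the square root of F. Log2 CPM used a prior count of 2. Replicates differed beyond counting noise, with a chi-square per degree of freedom of 2.61 for the Treatment pair and 3.13 for the WT pair. The common biological coefficient of variation was 9.56%. The fit was also run on counts simulated from its own dispersion estimates. Such counts cannot show how it handles shifts of a single library.

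Named domains are, per direction, the 12 called domains of greatest log2 fold change whose groups did not overlap (9 were called higher), the 5 densest, the 3 widest, and the 3 on each side of the density limit. Others named were chosen after their values were seen. The members and lists were chosen with earlier results of these data known. Alternatives were other scalings, loess offsets (span 0.3), no filter, DESeq2 1.42.0, limma 3.58.1 with voom, a replicate block, other limits and leaving out each library. The stretches and the fit without them were chosen after the data were seen. Sequences, motifs, GC content, exon or intron positions and the planned gene and marker lists are not reported, since no genome or annotation of GRCz11 was used here. Gene symbols given with domains are those the study's region list links to regions.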

Additional observations from a re-analysis of the deposited data

How the results depend on the processing

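The median log2 fold change of the domains, -0.04 with TMM on all intervals, was 0.0729 when the TMM factors were computed on the intervals no wider than 1 kb and 0.0000609 with factors from the domains alone. The 32 domains called lower became 7 and 13 under these 2 scalings and 6 with DESeq2's Wald test, and at an adjusted p under 0.1 they were 55. When a change of 0.5 on the log2 scale was also required, 9 were lower and 4 higher. Leaving out 1 library gave 5 to 118 domains called lower and 4 to 14 called higher, and a median between -0.07 and -0.01. Of the 41 calls, 30 remained without Treatment replicate 1 and 9 without Treatment replicate 2, and 39 remained without WT replicate 1 and 12 without WT replicate 2. Fewer samples are part of this, and in such fits a lone library takes its spread from the other group. DESeq2 kept 13 of the 41. For the 21 named domains, 216 of 273 comparisons kept the call, 57 lost it and 0 changed sign.

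The labels do not say whether libraries of the same replicate number were handled together. The difference between replicates 2 and 1 correlated between the groups at -0.06 over all tested intervals and -0.24 over the domains, which does not settle it. With the replicate block 44 domains were called lower and 9 higher, which included all 41. No GC correction was run, since no genome of the build was used here. Fold changes of shallow domains are limited by depth: below 200 reads per kb the median standard error was 0.18, against 0.06 above 1000.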
